A study of Mus musculus with 12 samples.

Results

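Expression of 9 complement genes outside the C1q chains was examined in cochlear cultures, and all 9 were found by their symbols among the 55487 genes of the deposited expression table. They were the classical pathway genes C1ra, C1s1 and C4b, the central component C3, the alternative pathway genes Cfb, Cfp and Cfd, and the regulators Serping1 and Clu. The 12 RNA-seq libraries, 3 per group, came from poly(A) RNA of cultured cells grown from spiral ganglia of mice on a mixed C57Bl6 and FVB/N background at postnatal day 4. The labels give 6 to 8 mice of both sexes per dissection, so animals were pooled, and they do not say whether libraries with the same number shared a preparation. The "sphere" group was cochlear glial cells grown for 5 to 7 days with EGF (20 ng/ml), bFGF (10 ng/ml), IGF (50 ng/ml) and heparan sulfate (50 ng/ml). All the other groups started from such spheres and were differentiated for 14 days on Poly-L-ornithine and Laminin. The neurotrophins BDNF (50 ng/ml) and NT3 (50 ng/ml) defined the control medium SCDM, to which SCDM/FGF added bFGF (100 ng/ml). FIBCL, the small molecule mixture used to induce neurons, held LIF at 1000 U/ml, Chir99021 at 10 μM, I-BET at 1 μM and both Forskolin and ISX9 at 20 μM. Its base was Neurobasal, for which the labels list bFGF at both 50 and 100 ng/ml and neither BDNF nor NT3. Base medium, growth factors and small molecules changed together between SCDM and FIBCL and cannot be told apart, and the spheres differed from the other groups in plating and time as well as in medium. The FIBCL columns of the table carry the name FIBC, so the table itself does not show whether LIF was present.

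The complement system is a set of plasma and tissue proteins that tag targets for uptake and can punch pores in membranes. In the classical pathway C1q recognizes a target and its partner proteases C1r and C1s cleave C4 and C2, the alternative pathway is built from C3, factor B, factor D and properdin, and both converge on cleavage of C3. In nervous tissue complement is known for tagging synapses and debris for uptake by phagocytes, and most of its genes are also expressed by fibroblasts and other stromal cells.

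From its column sums the table was taken to hold TPM, a measure of abundance per transcript length and relative to the total of a library. After each library was rescaled on genes expressed throughout, levels are called scaled TPM below. Differences are on the log2(scaled TPM + 1) scale with their standard error (SE) from limma, and a gene was called higher or lower at a Benjamini-Hochberg adjusted p under 0.05. This scale understates changes of genes near 0 TPM. Of the 9 genes, 8 reached at least 1 TPM in at least 3 libraries and were tested. Cfd did not. In these bulk libraries fewer cells of a type and less RNA per cell cannot be told apart.

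In FIBCL the complement transcripts were nearly reduced to clusterin. C3, C4b, C1ra, C1s1, Serping1, Cfb and Cfp were lower in FIBCL than in SCDM, SCDM/FGF and spheres, and Clu, the gene for the extracellular chaperone and complement regulator clusterin, was higher than in each of them. Serping1 fell furthest, from 343 ± 25.8 scaled TPM in SCDM to 0.742 ± 0.416 in FIBCL (SD, n = 3 each), and Clu rose from 210 ± 7.99 to 768 ± 38.8 scaled TPM. The 3 groups without the small molecules also differed: C3 and C4b were highest in spheres, while Serping1 and Cfp were highest in SCDM/FGF.

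**Figure D1:**
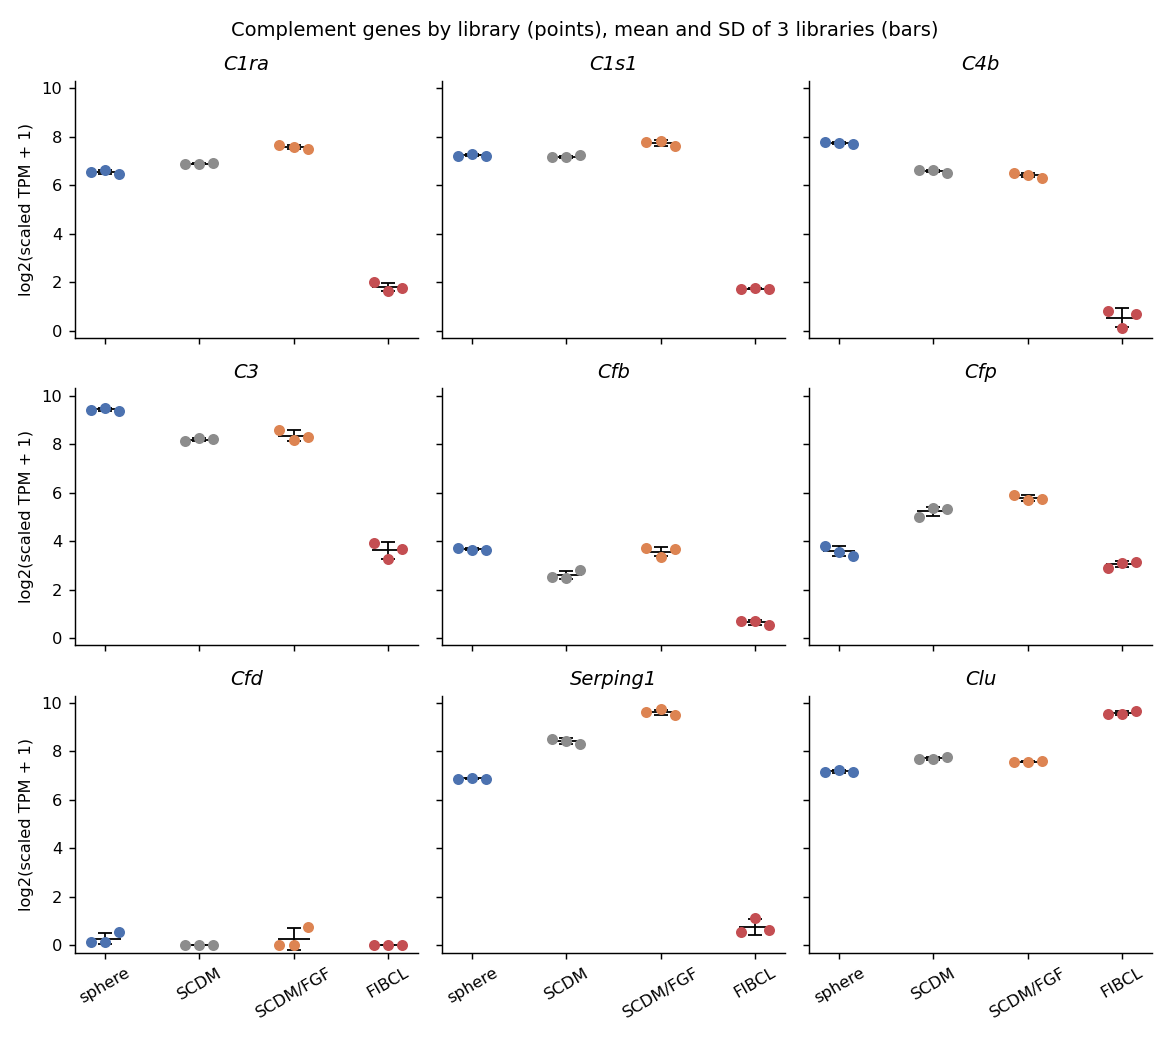
Level of each of the 9 complement genes in every library, as log2(scaled TPM + 1), for the 4 groups on the horizontal axis. Points are libraries and bars are the mean and SD of 3. All FIBCL libraries lie below all the others for C1ra, C1s1, C4b, C3, Cfb, Cfp and Serping1 and above them for Clu, and Cfd stays near 0.

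The proteases of the classical pathway, C1ra and C1s1, were expressed at similar levels outside FIBCL and fell together within it. C1ra encodes C1r, which activates C1s, and it measured 91.8, 96.9 and 86.9 scaled TPM in spheres, 116, 117 and 119 in SCDM, 204, 190 and 179 in the SCDM/FGF group, and 3.00, 2.16 and 2.38 in FIBCL. The order was SCDM/FGF, SCDM, spheres and FIBCL, with no overlap between any of the groups. C1s1, which encodes the protease that cleaves C4 and C2, measured 149, 154 and 146 scaled TPM in spheres, 141, 143 and 149 in SCDM, 222, 224 and 193 in the SCDM/FGF group, and 2.31, 2.38 and 2.27 in FIBCL. Spheres and SCDM overlapped for C1s1 and did not pass the test (log2 difference −0.05, SE 0.0557, adjusted p = 0.46), whereas C1ra was higher in SCDM than in spheres (log2 difference 0.35, SE 0.0815, adjusted p = 0.00391). Without rescaling the libraries these calls changed places: the difference of C1ra was 0.21 (adjusted p = 0.0695) and that of C1s1 −0.20 (adjusted p = 0.023). Both were higher in SCDM/FGF than in SCDM, C1ra by 0.70 (adjusted p = 3.25e-05) and C1s1 by 0.56 (adjusted p = 9.19e-06) on the log2 scale. In FIBCL against SCDM, C1ra fell by 5.08 (SE 0.0815, adjusted p = 8.05e-13) and C1s1 by 5.45 (SE 0.0557, adjusted p = 3.13e-14) on the log2 scale, which are mean levels 46.7-fold and 62.2-fold lower. The ratio of C1s1 to C1ra, in scaled TPM, ranged from 1.59 to 1.68 in spheres, 1.22 to 1.25 in SCDM, 1.08 to 1.18 in the SCDM/FGF group and 0.769 to 1.10 in FIBCL.

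C1ra (ENSMUSG00000055172) and C1s1 (ENSMUSG00000038521) are neighbours on mouse chromosome 6 that point toward each other. In GENCODE M21 on GRCm38, C1ra spans chr6:124512405-124523443 on the plus strand and C1s1 spans chr6:124530345-124542359 on the minus strand, 6901 bases apart. Their promoters are shown because the pair moved together, and that of C3 because it is the central component. Each is 300 bases from RefSeq (GRCm38.p6), 250 before and 50 after the annotated start, 5′ to 3′, with motif matches in capitals. The C1ra promoter lies at chr6:124512371-124512670 (plus strand), that of C1s1 at chr6:124542310-124542609 (minus strand) and that of C3 at chr17:57228087-57228386 (minus strand).
C1ra: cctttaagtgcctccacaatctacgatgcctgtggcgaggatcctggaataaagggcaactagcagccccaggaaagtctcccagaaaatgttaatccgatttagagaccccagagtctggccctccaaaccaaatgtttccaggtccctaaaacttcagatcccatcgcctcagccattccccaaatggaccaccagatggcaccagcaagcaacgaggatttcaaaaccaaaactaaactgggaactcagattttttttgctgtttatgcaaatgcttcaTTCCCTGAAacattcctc
C1s1: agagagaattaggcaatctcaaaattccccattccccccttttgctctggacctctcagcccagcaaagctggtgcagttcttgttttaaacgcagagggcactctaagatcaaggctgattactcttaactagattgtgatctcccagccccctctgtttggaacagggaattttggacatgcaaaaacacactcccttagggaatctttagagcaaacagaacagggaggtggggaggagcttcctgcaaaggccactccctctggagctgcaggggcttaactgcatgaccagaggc
C3: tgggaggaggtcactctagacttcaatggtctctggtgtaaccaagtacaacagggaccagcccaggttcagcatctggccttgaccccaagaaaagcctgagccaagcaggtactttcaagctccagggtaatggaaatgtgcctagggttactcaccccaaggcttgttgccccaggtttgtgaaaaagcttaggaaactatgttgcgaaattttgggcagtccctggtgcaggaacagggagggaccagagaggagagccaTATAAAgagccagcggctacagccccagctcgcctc

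Motifs of factors known to act on complement genes were searched in these windows on both strands. They were a STAT site (TTCNNNGAA, in 8.3% of 32851 RefSeq promoters of the same length), a cAMP response element (TGACGTCA, 1.79%), an interferon core site (AAANNGAAA, 10.6%), C/EBP sites (TTGCGCAA, 0.183%, and TTGCAAT, 2.22%), an NF-kB site (8.46%) and a TATA box (TATAAA, 13.6%). The capitals in C1ra are a STAT site match, TTCCCTGAA, at bases 33 to 41 counted from the RefSeq start as 1. Those in C3 are a TATA box match at bases 15 to 20. The C1s1 window, which is the first of 2 annotated starts, and the windows of Cfp and Cfd held none of these letters. Of the 9 genes, 5 were in the promoter table. A match is a description of the letters and not evidence of binding.

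C4b encodes complement C4, the substrate of C1s, and of the 9 genes it was the closest to C3 in its pattern. C4b (ENSMUSG00000073418, chr17:34728380-34743882, minus strand) measured 217, 216 and 205 scaled TPM in spheres, 97.2, 97.2 and 90.7 in SCDM, 89.7, 85.3 and 78.7 in the SCDM/FGF group, and 0.778, 0.0739 and 0.618 in FIBCL. Spheres were above both control media and FIBCL was near 0 in every library. C4b was 2.24-fold lower in SCDM than in spheres (log2 difference −1.15, SE 0.146, adjusted p = 4.91e-05) and fell by 6.04 on the log2 scale from SCDM to FIBCL (SE 0.146, adjusted p = 1.75e-11). The former call was lost with a pseudocount of 0.1 (adjusted p = 0.0525). SCDM/FGF lay just below SCDM without overlap and did not pass the test (log2 difference −0.17, adjusted p = 0.391).

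C4b has a close paralog, C4a, 65209 bases away, and 8.26% of the 150-base stretches of its longest transcript also occur in C4a, so reads could be split between them. C4a was called in no comparison, with mean levels from 1.50 to 4.40 scaled TPM, and in FIBCL the deposited TPM of C4b and C4a were 0.65 and 0.65, 0.06 and 4.08, and 0.47 and 1.87 in the 3 libraries. With the pair summed, an alternative chosen after seeing the data, the difference between FIBCL and SCDM was −4.63 (adjusted p = 6.18e-09). C1ra and C1rb share 26.3% of such stretches and C1s1 and C1s2 share 2.86%, while C1rb and C1s2 did not exceed a mean of 2.75 and 12.3 scaled TPM in any group. C1s1 also overlaps an antisense gene, Gm16567, over 18.4% of its exonic bases, and whether the counting used strand is not given in the sources used here, which mention only an orientation mode for the alignment, so their reads may not be separated. Gm16567 reached at most 2.42 TPM.

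C3, the component on which all activation pathways converge, was the most abundant of the 9 transcripts per length in spheres. C3 (ENSMUSG00000024164, chr17:57203970-57228136, minus strand) measured 681, 719 and 668 scaled TPM in spheres, 278, 304 and 291 in SCDM, 387, 288 and 312 in the SCDM/FGF group, and 14.25, 8.49 and 11.9 in FIBCL. Spheres were highest and FIBCL lowest with no overlap, and the control media overlapped each other. C3 was 2.37-fold lower in SCDM than in spheres (log2 difference −1.24, SE 0.150, adjusted p = 3.42e-05) and 25.2-fold lower in FIBCL than in SCDM (log2 difference −4.57, SE 0.150, adjusted p = 1.95e-10). The difference between SCDM/FGF and SCDM, 0.16 (SE 0.150), did not pass the test (adjusted p = 0.416). The ratio of C4b to C3, in scaled TPM, was 0.232 to 0.350 over the 9 other libraries and 0.00871 to 0.0546 in FIBCL.

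The alternative pathway genes were expressed at lower levels and did not share one pattern among the groups without small molecules. Cfb, which encodes factor B, the protease of the alternative C3 convertase (ENSMUSG00000090231, chr17:34856374-34862518, minus strand), measured 12.1, 11.5 and 11.6 scaled TPM in spheres, 4.81, 4.58 and 5.96 in SCDM, 12.0, 9.22 and 11.6 in the SCDM/FGF group, and 0.622, 0.616 and 0.460 in FIBCL. SCDM/FGF overlapped spheres, and their difference did not pass the test (log2 difference −0.10, adjusted p = 0.51), while SCDM lay below both. With added bFGF Cfb was 2.14-fold higher than in SCDM (log2 difference 0.96, SE 0.115, adjusted p = 3.76e-05). In FIBCL against SCDM it fell by 1.96 on the log2 scale (SE 0.115, adjusted p = 2.81e-08), and the difference was −2.97 with a pseudocount of 0.1 in place of 1. A readthrough gene, Gm20547, covers 79.5% of the exonic bases of Cfb on the same strand and reached at most 0.46 TPM, which limits how exactly the FIBCL level of Cfb is known.

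Cfp encodes properdin, which stabilizes the alternative convertase and is made by leukocytes (ENSMUSG00000001128, chrX:20925454-20931555, minus strand). It measured 12.9, 10.9 and 9.47 scaled TPM in spheres, 30.9, 39.99 and 39.1 in SCDM, 59.3, 51.0 and 52.1 in the SCDM/FGF group, and 6.51, 7.59 and 7.73 in FIBCL. SCDM/FGF was highest, then SCDM, spheres and FIBCL, without overlap between neighbours. Cfp was 3.31-fold higher in SCDM than in spheres (log2 difference 1.64, SE 0.123, adjusted p = 7.18e-07) and 1.48-fold higher again in SCDM/FGF than in SCDM (adjusted p = 0.00351). It was 5.04-fold lower in FIBCL than in SCDM (log2 difference −2.18, SE 0.123, adjusted p = 2.04e-08) and 1.52-fold lower than in spheres (log2 difference −0.54, adjusted p = 0.00211), the smallest difference between FIBCL and another group among the 8 tested genes. The latter difference was −1.03 without rescaling.

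Cfd, the gene for factor D or adipsin, the protease that cleaves factor B and a product of fat cells (ENSMUSG00000061780, chr10:79890853-79892655, plus strand), was at the edge of detection. The table lists it at 0.12, 0.12 and 0.56 TPM in the 3 sphere libraries, at 0.70 TPM in a single SCDM/FGF library, and at 0 in the other 8 libraries, all of SCDM and FIBCL among them. The 15 housekeeping genes looked at were at 15.1 TPM or more in every library. Read numbers cannot be had from TPM, so no detection limit can be given for Cfd. Of the 5 adipocyte markers, Lep was at 0 in all libraries, and the summed level of the list ranged from 12.8 to 14.5 scaled TPM in spheres, 12.1 to 20.8 in SCDM, 36.3 to 57.8 in the SCDM/FGF group and 0.382 to 1.64 in FIBCL, mostly Fabp4.

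Serping1 encodes the C1 inhibitor, the serpin that inactivates C1r and C1s, and its group levels spanned the widest range of the 9 genes on the log2 scale. Serping1 (ENSMUSG00000023224, chr2:84765387-84775444, minus strand) measured 117, 119 and 116 scaled TPM in spheres, 367, 347 and 316 in SCDM, 782, 848 and 726 in the SCDM/FGF group, and 0.455, 1.22 and 0.552 in FIBCL. The groups did not overlap, and SCDM/FGF was above SCDM, SCDM above spheres and FIBCL below all. It was 2.93-fold higher in SCDM than in spheres (log2 difference 1.54, SE 0.131, adjusted p = 2.03e-06), 2.29-fold higher in SCDM/FGF than in SCDM (1.19, SE 0.131, adjusted p = 1.93e-05) and in FIBCL it fell by 7.65 on the log2 scale against SCDM (SE 0.131, adjusted p = 1.34e-12). Against its target protease, the ratio of Serping1 to C1s1 in scaled TPM averaged 0.784 in spheres, 2.39 in SCDM, 3.69 in the SCDM/FGF group and 0.318 in FIBCL.

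Clu was the exception in direction. Clusterin binds forming membrane attack complexes and also chaperones misfolded proteins outside the cell. Clu (ENSMUSG00000022037, chr14:65968483-65981547, plus strand) measured 140, 150 and 142 scaled TPM in spheres, 207, 203 and 219 in SCDM, 188, 188 and 196 in the SCDM/FGF group, and 741, 751 and 813 in FIBCL. All FIBCL libraries were above all others, and the 9 other libraries ran from 140 to 219 scaled TPM. Clu was 3.66-fold higher in FIBCL than in SCDM (log2 difference 1.87, SE 0.0464, adjusted p = 2.21e-11), 4.03-fold higher than in SCDM/FGF (2.00, adjusted p = 1.40e-11) and 5.33-fold higher than in spheres (2.41, adjusted p = 3.95e-12). It was 1.46-fold higher in SCDM than in spheres (0.54, adjusted p = 2.27e-06) and 1.32-fold higher in SCDM/FGF (0.40, adjusted p = 2.50e-05, or 0.17 without rescaling). The small difference between SCDM/FGF and SCDM, −0.14 (SE 0.0464, adjusted p = 0.0344), was lost when SCDM library 1 or 3 or SCDM/FGF library 1 or 2 was left out (adjusted p from 0.0579 to 0.13), and with no filter on low values or no variance trend.

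**Figure D2:**
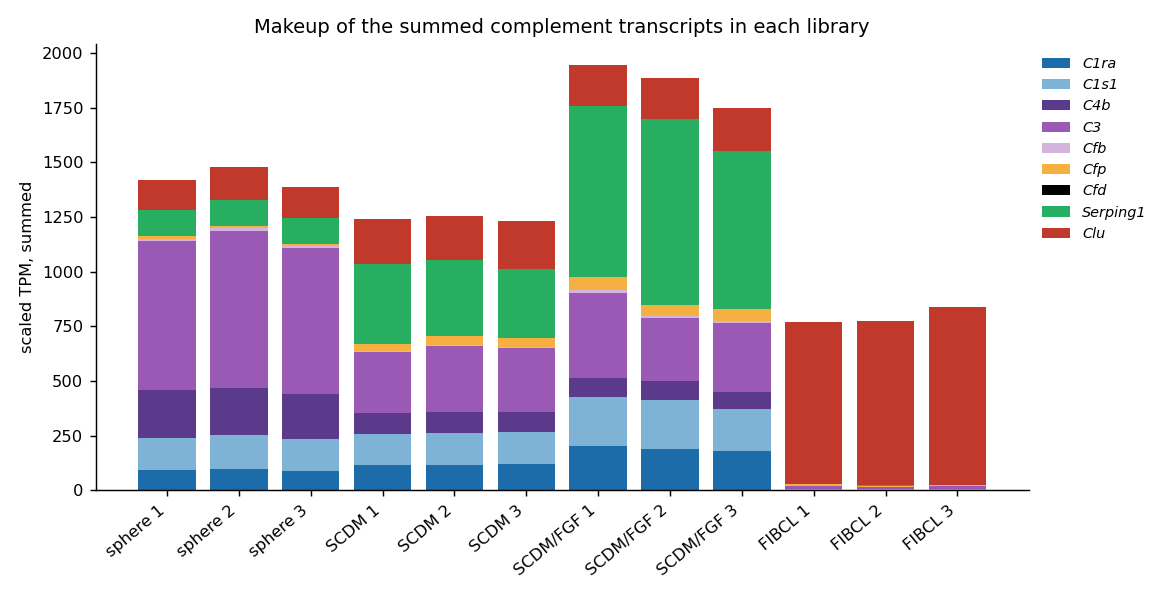
Summed scaled TPM of the 9 genes in each of the 12 libraries, stacked by gene. C3 is the largest share in spheres, Serping1 in SCDM/FGF, and Clu makes up 96.4% to 97.1% of the sum in FIBCL.

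Added up, the 9 transcripts came to 1386 to 1477 scaled TPM in spheres, 1230 to 1255 in SCDM, 1749 to 1944 in the SCDM/FGF group and 769 to 839 in FIBCL. Clu was 9.85% to 10.25% of this sum in spheres, 16.2% to 17.8% in SCDM, 9.68% to 11.2% in the SCDM/FGF group and 96.4% to 97.1% in FIBCL. Without Clu the sum was 1244 to 1327 in spheres, 1012 to 1052 in SCDM, 1554 to 1755 in the SCDM/FGF group and 22.5 to 27.9 in FIBCL. The sums of the groups did not overlap on either count.

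**Figure D3:**
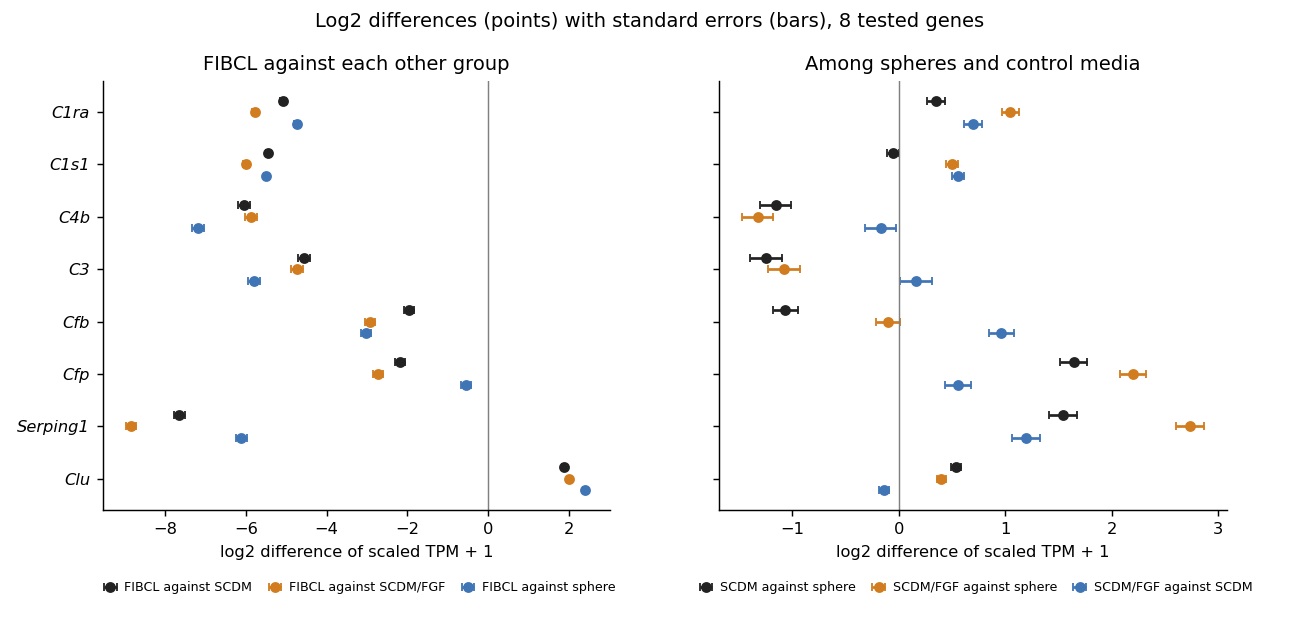
Log2 differences of the 8 tested genes with standard errors as bars, on separate scales. Left, FIBCL against SCDM, SCDM/FGF and spheres, where 7 genes lie below 0 and Clu above. Right, the comparisons among spheres and the control media, where C3 and C4b lie below 0 and Cfp and Serping1 above 0 against spheres.

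In FIBCL against SCDM 7 of the 8 tested genes were lower and 1 was higher, where 39.0% of all 16016 tested genes were lower and 32.7% were higher. All 7 lower genes differed by at least 1.5 on the log2 scale as well, a limit that 9.98% of tested genes met. The median difference of the 8 genes was −4.82, against −0.0717 over all tested genes. Against SCDM/FGF the counts were also 7 lower and 1 higher (38.2% and 32.5% of all tested genes), with 7 past the limit (9.80%) and a median of −5.26 (−0.0530 over all genes). The largest of these was Serping1, at −8.84 (SE 0.131, adjusted p = 4.62e-13). Against spheres 7 were lower and 1 higher (38.7% and 32.9%), 6 of the lower genes passed the limit (8.80%), Cfp being the exception, and the median was −5.12 (−0.0583). C4b fell by 7.20 and C3 by 5.81 on the log2 scale in that comparison (adjusted p = 5.45e-12 and 3.28e-11). These 3 comparisons share the FIBCL libraries.

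The groups without small molecules were also compared with each other. In SCDM against spheres 4 of the 8 genes were higher (Cfp, C1ra, Serping1 and Clu), 3 were lower (C3, C4b and Cfb) and C1s1 was not called, where 24.5% of all tested genes were higher and 25.8% lower. The median over the 8 was 0.149, against −0.0135 over all genes. In SCDM/FGF against spheres 5 were higher (Cfp, C1ra, C1s1, Serping1 and Clu), C3 and C4b were lower and Cfb was not called, with 25.0% and 25.4% of all tested genes higher and lower, and the medians were 0.453 and −0.0201. Serping1 was 6.70-fold higher (log2 difference 2.73, SE 0.131, adjusted p = 2.07e-08) and C4b 2.52-fold lower (−1.32, SE 0.146, adjusted p = 1.74e-05) in this comparison. Adding bFGF to SCDM raised 5 (Cfb, Cfp, C1ra, C1s1 and Serping1) and lowered Clu, with 21.8% of all tested genes higher and 21.3% lower, and C3 and C4b did not pass the test. The medians were 0.555 and −0.0156. Of the 8, 0 changed by 1.5 or more on the log2 scale with bFGF. The largest change was that of Serping1 and the next that of Cfb. Here too comparisons share libraries, so the counts are not independent.

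The other genes of the system were taken from a list of 49, of which 34 were tested. In FIBCL against SCDM 25 of the 34 were lower and 5 higher (39.0% and 32.7% of all tested genes), and 13 were lower by at least 1.5 on the log2 scale (9.98% of all tested genes). The 3 chains of C1q, the recognition molecule that C1r and C1s bind, led them: C1qa, at 416 ± 39.6 scaled TPM in SCDM and 0.385 ± 0.183 in FIBCL (SD, n = 3), differed by −8.24 (adjusted p = 2.54e-13), C1qb by −8.10 and C1qc by −7.64. Among the others were the receptors Itgam (−4.34), C3ar1 (−3.55), Cd93 (−2.71), Itgb2 (−2.52) and C5ar1 (−1.86), then C1s2 (−2.78), the C2 gene (−2.07), Csmd1 (−1.86) and the collectin Colec12 (−1.56). The 5 higher genes, named after their values were seen, were Csmd2 (1.17), Cd55 (0.86), Cd59a (0.71), Masp1 (0.33) and C1qbp (0.33). Cd55 and Cd59a encode membrane proteins that protect cells from their own complement, and Cd55 measured 2.10, 28.5, 29.1 and 52.2 scaled TPM on average in spheres, SCDM, SCDM/FGF and FIBCL. The regulators did not share 1 direction. Of 13 tested fluid-phase and membrane regulators, 4 were higher in FIBCL than in SCDM, 7 lower and 2 not called. Of all tested genes 32.7% were higher and 39.0% lower. Of the lower regulators 2 were past the limit of 1.5 (9.98% of all tested genes). Cr1l, a regulator also named after its value was seen, fell from 69.6 to 37.45 scaled TPM (log2 difference −0.88, adjusted p = 2.09e-08). Of the terminal pathway genes 3 of 7 were tested, and 2 were lower.

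**Figure D4:**
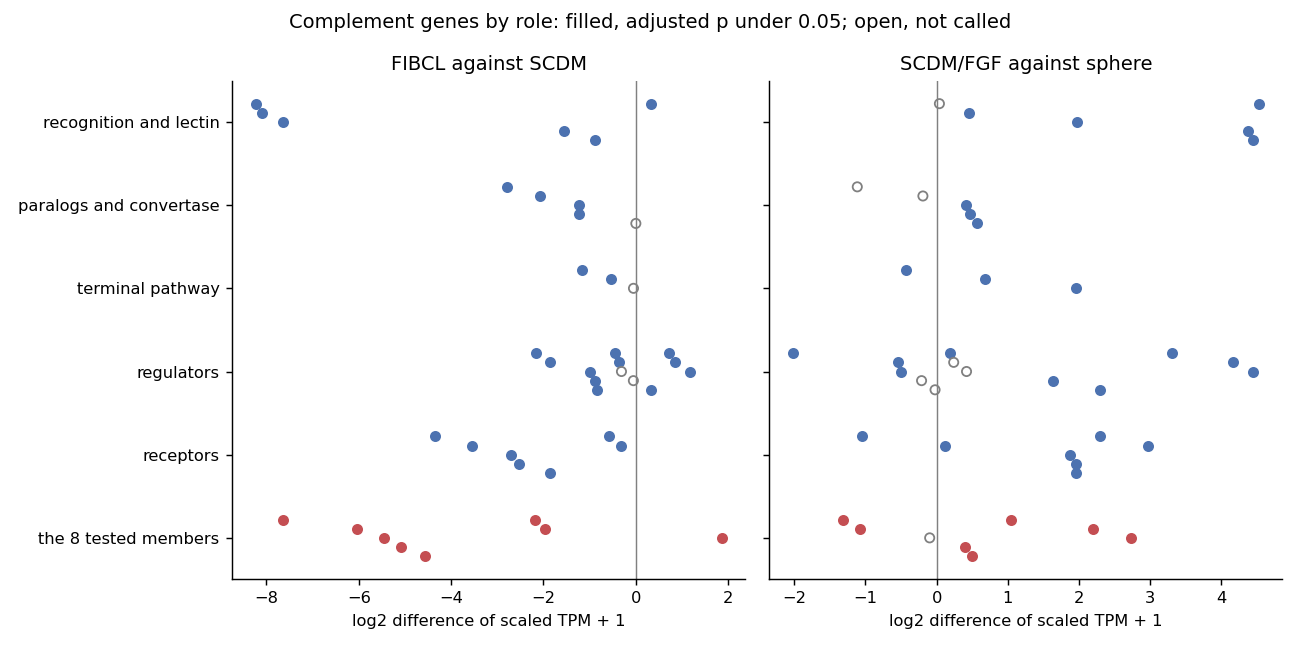
Log2 differences of complement genes grouped by role, with each point a gene, filled where the adjusted p was under 0.05. In FIBCL against SCDM (left) C1qa, C1qb and C1qc lie from −8.24 to −7.64 and the 8 genes of the main list (red) from −7.65 to 1.87. In SCDM/FGF against spheres (right) most recognition genes and receptors lie above 0.

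The level of C1q did not follow that of its partner proteases between spheres and SCDM. C1qa was far higher in SCDM than in spheres (22.7 ± 3.13 scaled TPM, log2 difference 4.14, adjusted p = 3.71e-10), whereas C1ra rose by 0.35 and C1s1 was not called. The ratio of C1qa to C1ra in scaled TPM averaged 0.246 in spheres, 3.55 in SCDM, 2.85 in the SCDM/FGF group and 0.151 in FIBCL. With added bFGF 18 of the 34 other genes were higher than in SCDM and 5 lower (21.8% and 21.3% of all tested genes), and 7 rose by at least 1.5 on the log2 scale (2.88% of all tested genes). Among them were the lectin pathway protease gene Masp1 (3.85, from 8.68 to 138 scaled TPM, adjusted p = 1.31e-10), the regulators Cfi (3.13, from 1.04 to 16.9), Vtn (2.63, from 0.365 to 7.51) and Csmd1 (2.63, from 2.92 to 23.4), the ficolin Fcna (1.84) and C7 (1.69). Cfi encodes factor I, a protease that inactivates C3b. In SCDM/FGF the transcripts of the soluble inhibitors Cfi and Serping1 were each at their highest, and C3 was not called against SCDM.

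Among 15 genes for transcription factors and cytokine receptors known to act on complement genes, 11 were lower in FIBCL than in SCDM (39.0% of all tested genes) and 1, Stat3 (0.38), was higher (32.7% of all tested genes). Il6st, the gp130 subunit through which LIF and interleukin-6 signal, was past the limit of 1.5 (−1.96, adjusted p = 2.58e-08, from 146 to 36.8 scaled TPM). The part of these genes in the levels of the complement genes was not tested.

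Summed markers of several cell types were also lower in FIBCL than in SCDM, and the sums moved differently among the other groups. A sum is weighted toward its most abundant genes, and genes within the complement and mesenchyme sums moved in both directions. From spheres to SCDM the complement sum without Clu fell from 1284 to 1033 on average, and the glial sum fell too. The macrophage and mesenchyme sums rose. Within the complement sum C3, C4b and Cfb were lower in SCDM, and Serping1, C1ra and Cfp were higher. Of the 11 mesenchyme markers 5 were higher in SCDM than in spheres, 4 lower and 2 not called (24.5% and 25.8% of all tested genes). From SCDM to SCDM/FGF the complement sum rose to 1668, while the macrophage and mesenchyme sums fell. Of the 11 mesenchyme markers 5 were higher in SCDM/FGF than in SCDM, 5 lower and 1 not called (21.8% and 21.3% of all tested genes). Col1a2 fell from 3385 to 957 scaled TPM there, and Dcn rose from 536 to 1436. The summed level of 9 glial markers was 747 to 787 scaled TPM in spheres, 243 to 279 in SCDM, 239 to 292 in the SCDM/FGF group and 20.4 to 26.8 in FIBCL, and 8 of the 9 were lower in FIBCL than in SCDM. Of the 11 mesenchyme and fibroblast markers 9 were lower and 2, Twist1 and Prrx1, higher in FIBCL than in SCDM, and their sum was 2917 to 2974 in spheres, 7566 to 7887 in SCDM, 5556 to 5992 in the SCDM/FGF group and 221 to 236 in FIBCL. All 12 macrophage markers were lower in FIBCL than in SCDM, and all 12 were higher in SCDM than in spheres, with sums of 135 to 173, 1332 to 1408, 1189 to 1285 and 191 to 224 in the same order. Of the FIBCL sum, Cd68 alone was 165 on average, while Csf1r, at 105 scaled TPM in SCDM, was at 0.335. The 8 neuronal markers summed to 13.6 to 14.7, 19.2 to 22.5, 17.4 to 22.6 and 418 to 444, and all 6 that were tested were higher in FIBCL than in SCDM. The 6 endothelial markers summed to 109 to 111, 42.9 to 51.2, 265 to 304 and 13.1 to 13.7 in the same order. Of these 6, 3 were lower in FIBCL than in SCDM, Emcn from 37.7 scaled TPM to 0 among them, and 2 were higher, Kdr from 1.82 to 10.1 and Cdh5 from 1.33 to 2.83, while Cldn5 was at 0 in both. The 5 mural cell markers summed to 29.4 to 31.8, 96.1 to 126, 22.01 to 29.4 and 7.00 to 7.74, and the 5 neutrophil markers stayed at or below 7.20 in every library. The part of these cell types in the complement levels was not tested. The labels call all differentiated groups induced neurons, and whether macrophages or mesenchymal cells were present in them was not tested. The marker sums cannot decide this, since a few genes can carry a sum. In FIBCL single markers were uneven: Csf1r, Mrc1 (0.429) and Postn (0.626) averaged under 1 scaled TPM, while Cd68 and Twist1 (110) were far above it.

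**Figure D5:**
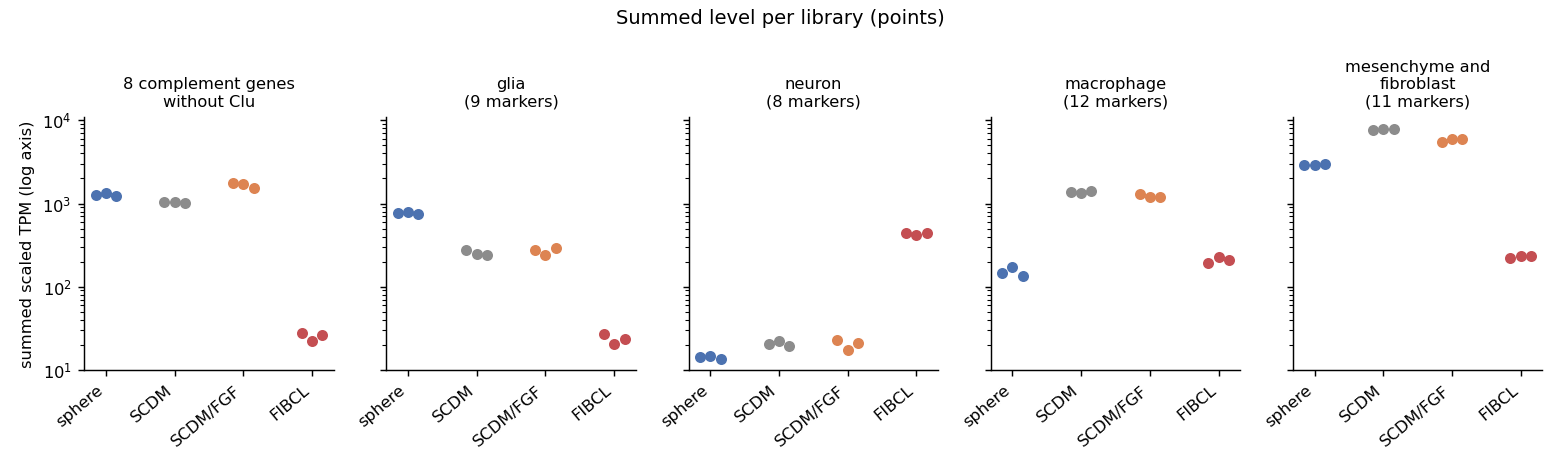
Summed scaled TPM per library (log axis) of the complement genes other than Clu and of the glial, neuronal, macrophage and mesenchymal marker lists. The sum of the complement genes without Clu is 22.5 to 27.9 in FIBCL and 1012 or more in all other libraries, and the neuronal list is highest in FIBCL.

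Between genes, levels over the 12 libraries followed a few shared patterns. These correlations describe points that fall into 4 groups of 3 and share library and scaling, so they mostly reflect the group means. C3 and C4b had r = 0.998, C1ra and C1s1 0.995, C1ra and Serping1 0.988, and Clu and C3 −0.995, on the log2 scale. Clu had a negative r with each of the other 7 genes, and Cfp had an r of 0.535 to C3 and 0.862 to Serping1. Among 11132 genes with a mean of at least 5 scaled TPM, the most similar to C3 were Col6a3, Cdh19 and Camp (r = 0.998 each), and to C4b Camp and Ssc5d (r = 0.999 each) and C3 (0.998). Cfb was most like Col4a5, Hp (r = 0.996 each) and Matn2 (0.995), and C1ra like Scara5, Casp12 and Fads2. C1s1 was most like Igfbp5 (r = 0.999), Rhoj and Mgp, Serping1 like Cyp7b1 (0.996), Tram2 and Mgat2, and Clu like Slc16a1 (0.997), Leprotl1 and Tnfrsf12a. Cfp was most like Mrc1, Tlr8 and Clec4n (r = 0.991 each), and Mrc1 is among the macrophage markers above. The macrophage list as a whole did not share the rise of Cfp from SCDM to SCDM/FGF. Of its 12 markers 1 was higher there, 6 were lower and 5 were not called (21.8% of all tested genes were higher and 21.3% lower). Mrc1 rose from 42.1 to 97.7 scaled TPM there, and Adgre1 fell from 199 to 86.6. The part of macrophages in the rise of Cfp was not tested.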

How the data were processed

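Poly(A) RNA-seq was analysed in 12 libraries grouped by their labels. The authors used SeqPrep and Sickle for trimming, TopHat for alignment and RSEM for quantification, and deposited values with 2 decimals for 55487 genes. The deposited values were taken as TPM from their column sums, although the study describes a fragments-per-kilobase measure. The processing notes also name Cufflinks. Versions, genome build, annotation and the strand setting of the counting are not given in the sources used here. TPM does not keep read numbers, so depth and counting error are unknown. The listed values summed to 899295 to 911076 in FIBCL and 982067 to 994845 elsewhere. The FIBCL columns are named FIBC and were matched by elimination.

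The tests covered 16016 genes that reached 1 TPM in 3 or more libraries. Scaling used the log2 ratios of a library to the mean library over 8434 genes that reached 5 TPM throughout, averaged after trimming 30% at each end. Log2(scaled TPM + 1) was fitted in limma 3.58.1 (R 4.3.3) with a variance trend, 4 groups and 6 comparisons, adjusted by Benjamini-Hochberg within each. The model was also run on simulated normal values with a known change. These follow the assumptions of the model, so the run cannot test whether they hold for these data. The 9 genes and the gene lists were chosen with earlier results of these data known. Besides the 9, the text names listed complement genes and inducers past an adjusted p of 0.05 and 1.5 on the log2 scale, the C1q chains, the paralogs and the 3 most similar genes. Some genes that meet this rule are not reported here. Alternatives covered scaling, filter, pseudocount, variance trend, groups in the fit, replicate block, left-out libraries and summed paralogs. Libraries of a group are called biological replicates in the labels, and the p-values weigh differences against the spread between these libraries. Animals were pooled, so the p-values do not describe variation between single animals. Positions are from GENCODE M21 and promoters from RefSeq. Figures were drawn with matplotlib 3.10.9 (Python 3.11.15, pandas 2.3.3).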

Additional observations from a re-analysis of the deposited data

How the results depend on the processing

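Across the alternatives, 1092 of 1104 differences of single genes kept their side of the threshold, 4 newly passed it and 8 no longer did. Of those that passed with or without the alternative, 0 changed sign. Differences that did not pass could change sign, as Cfb in SCDM/FGF against spheres did (−0.31 to 0.01). The number of genes lower in SCDM/FGF than in SCDM, 1 as reported (Clu), was 0 with no filter on low values (adjusted p = 0.0593 for Clu), 0 with no variance trend (0.079), and 0 to 2 with libraries left out, being 2 without FIBCL library 2, where C4b also passed. On deposited TPM without rescaling, 1 gene was lower by the limit of 1.5 in SCDM/FGF against spheres (0 as reported), and Cfb newly passed in that comparison (−0.31, adjusted p = 0.0443). C1s1 in SCDM against spheres passed with quantile normalisation too (−0.17, adjusted p = 0.0259). Clu in FIBCL against SCDM ranged from 1.47 to 1.90. Cfd, tested only with no filter, had adjusted p of 0.285 to 1. The causes were not tested.

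Rescaling moved all genes: without it the median difference of FIBCL against SCDM was −0.401 rather than −0.0717, and against spheres −0.515 rather than −0.0583. Genes called higher in FIBCL were then 3280 rather than 5234 against SCDM, 3337 rather than 5205 against SCDM/FGF and 2666 rather than 5276 against spheres, with 9821 rather than 6194 lower in the last. In SCDM/FGF against spheres they were 2529 higher and 6871 lower rather than 4005 and 4070. With the replicate number as a block, 8 of the tested genes were called in FIBCL against SCDM as without it, and no call on these genes changed. Libraries with the same number did not deviate together (correlations of −0.121 to 0.0976 over 18 pairs), so the number was not read as a pairing. Depth is unknown, which limits statements on Cfd and on levels under 1 TPM in FIBCL.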

Other observations

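Several listed complement genes stood at or near 0 in these cultures. Fcnb was listed at 0 in all libraries, and C8a, C8b, C9, Mbl1, Cd55b and Vsig4 did not exceed a group mean of 0.203 scaled TPM. The 9 genes together made up 0.168% of the listed TPM in spheres, 0.134% in SCDM, 0.189% in the SCDM/FGF group and 0.0702% in FIBCL on average, before rescaling.

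The balance of C3 and Cfb differed between the groups: the ratio of C3 to Cfb in scaled TPM averaged 58.9 in spheres, 57.7 in SCDM, 30.1 in the SCDM/FGF group and 20.9 in FIBCL. The ratio of Serping1 to C3 averaged 0.170 in spheres, 1.18 in SCDM and 2.43 with added bFGF, and it was 0.0319, 0.144 and 0.0464 in the 3 FIBCL libraries, the highest in FIBCL library 2. Masp1 was 100.0 ± 1.86 scaled TPM in spheres and 138 ± 14.8 in SCDM/FGF, against 8.68 ± 1.30 in SCDM and 11.1 ± 0.368 in FIBCL (SD, n = 3), an order unlike that of any of the 8 tested genes above. The ratios were not tested between groups.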
